A study of Mus musculus with 3 samples.

Results

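The subject is the unperturbed state of mouse LSK cells, as 1 array labelled WT LSKs recorded it. LSK cells are the small fraction of bone marrow cells that lack antigens of mature lineages and carry Sca-1 and the stem cell factor receptor Kit. The series holds 3 Affymetrix arrays, 1 per genotype, and the other 2 were hybridised with LSK RNA from mice without p53 or without both p53 and Mef. Only the wild-type array was used, chosen by its label, and the strain, age, sex and number of mice behind it are not given in the sources used here. Its 45101 probe sets gave a value for 18193 named genes, which are the members described.

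The LSK fraction holds the haematopoietic stem cells and the multipotent progenitors that descend from them. Stem cells renew themselves slowly, while progenitors divide often and begin to transcribe genes of several blood lineages at low levels before committing to a single lineage. Signals through Kit, Flt3 and other cytokine receptors keep these cells alive, and networks of GATA, RUNX, ETS and HOX factors keep their identity. A bulk measurement pools all of these cells, so fewer cells of a type and less RNA per cell cannot be told apart.

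Signals are intensities on a linear scale. Each gene was represented by its brightest probe set that carries a single gene symbol. Genes were called bright in the top 10% of named genes by signal, from a signal of 2878, which 1820 genes reached (10%). They were called near background below 112, the 95th percentile of 76 genes for olfactory, vomeronasal, taste and trace amine receptors, which serve smell and taste and have no known broad role in blood stem cells. Those sensory genes had a median of 25.5 and ran from 1.19 to 191. In all, 7377 named genes were near background (40.5%) and 8996 were between the limits (49.4%), here called middling. The bright limit was 25.7 times the near-background limit.

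**Figure D1:**
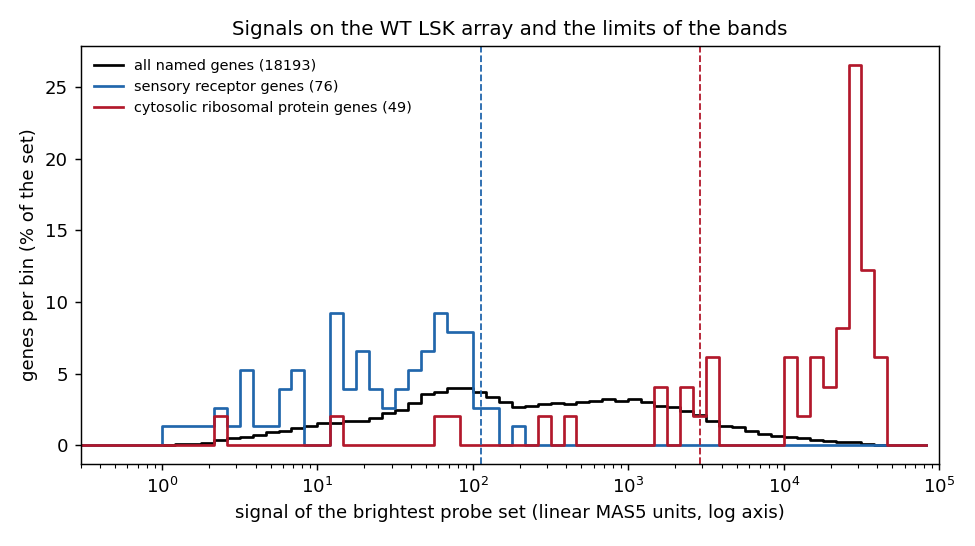
Share of genes per bin against the signal of each gene's brightest probe set (linear MAS5 units on a log axis) for all 18193 named genes, the 76 sensory receptor genes and the 49 cytosolic ribosomal protein genes, with dashed lines at the near-background limit of 112 and the bright limit of 2878. The sensory receptor genes lie mostly below the lower line, and 38 of the 49 ribosomal protein genes lie at or above the upper one.

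With 1 array there is no error and no test, and no value below carries a replicate spread. Probe sets also differ in affinity, so an order of signals is not an order of transcript abundance. The spread between probe sets of the same gene gives a scale for this. In the 9010 genes with at least 2 probe sets, the brightest exceeded the next by a median of 3.03 times (interquartile range 1.63 to 7.21). Of 1418 bright genes with a further probe set, the next one was also bright for 396, middling for 911 and near background for 111. Genes with 1 probe set were bright in 4.38% of cases and genes with more in 15.7%, so the choice of the brightest favours genes with many probe sets. Control probe sets at the 3' end of actin and Gapdh read 8.29 and 5.85 times those at the 5' end, and the part of this bias in the order of signals was not tested.

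Kit of the gate was read, along with Flt3, Cd34 and Meis1, which mark stem cells or progenitors and do not define the gate. Kit, the receptor that gives LSK cells the last letter of their name, was bright at 4996, above 94.6% of named genes, while its other probe set read 276. Flt3, the receptor of multipotent and early lymphoid progenitors, read 2387, above 87.8% of genes. Cd34, a sialomucin found on progenitors and on activated or short-term stem cells, read 2230, above 86.9%. The homeobox factor gene Meis1, needed for stem cell maintenance, read 2169, with its other probe sets at 533 and 188. The 4 measured markers were thus well above the near-background limit by their brightest probe sets. Ly6a, which encodes Sca-1, has no row in the annotation table used and was not analysed here. The values read therefore do not test the LSK label.

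The 250 bases before the start of Kit are shown because Kit belongs to the gate and was the bright marker among the 4. They lie at chr5:75574737-75574986 on the + strand of GRCm38.p6, from RefSeq, and the capitals mark a GC box, GGGCGG.
Kit: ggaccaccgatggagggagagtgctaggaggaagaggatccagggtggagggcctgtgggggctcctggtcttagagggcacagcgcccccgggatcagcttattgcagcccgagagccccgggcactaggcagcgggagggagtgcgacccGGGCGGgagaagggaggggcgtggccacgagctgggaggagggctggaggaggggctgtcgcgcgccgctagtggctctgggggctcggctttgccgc
A GC box, the letters bound by factors of the SP and KLF families, was held by 68.7% of promoters of bright genes and by 54% of promoters of all named genes (windows from 250 bases before to 50 after the start).

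Of 34 genes that mark or report stem cells, 4 were bright (11.8%), a share near the 10% of all named genes. Another 4 were near background (11.8%, against 40.5% of all named genes), and the median was 560. The bright ones were Txnip, which binds and restrains thioredoxin, at 7450, the GPI-anchored Ly6 family gene Ly6e at 5650, the stem cell bZIP factor gene Hlf at 3485 and Abcg2, the pump behind the dye-excluding side population, at 3386. The rest of the list was mostly middling. The surface receptor gene Cd93 read 2746, Mycn 1790, and Pdzk1ip1 1745. Itga2b, the integrin CD41 of platelets and some stem cells, and the chromatin reader gene Mllt3 each read 1215. Evi2a read 1168, the TGF-beta co-receptor gene Eng 1108 and Gpr171 985. Genes that split the LSK fraction by surface phenotype were also middling. Cd48, found on progenitors and absent from the most primitive stem cells, read 1070, and Slamf1, which encodes CD150 of long-term stem cells, read 475 with further probe sets at 53.6 and 19.5. Procr, the protein C receptor used to enrich stem cells, read 547, and Cd27, of multipotent progenitors, 296. The zinc finger factor genes Mecom and Prdm16, both needed by stem cells, read 958 and 251.

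Among the remaining stem cell genes, the growth suppressor gene Ndn read 740, the adhesion gene Esam 574, the guidance receptor gene Neo1 572, Rgs1 544, the tetraspanin gene Cd9 514 and the reporter gene Fgd5 511. Vwf, the clotting glycoprotein also used to mark platelet-biased stem cells, read 457. Cavin2 read 308, the angiopoietin receptor gene Tek 205, Ctnnal1 165, Robo4 161 and the drug pump gene Abcb1a 114, just over the lower limit. Near background were the sialomucin gene Emcn at 106, Thy1 at 94.8, the Tek-related gene Tie1 at 65.9 and Hoxb5 at 8.34. Hoxb5 serves as a reporter of long-term stem cells.

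Of 18 listed antigens that antibodies against mature lineages recognise, 13 had a value. Near background were 8 of the 13 (61.5%, against 40.5% of all named genes), and the median was 54.6. T cell antigens made up most of these. The CD3 chain genes Cd3d, Cd3e and Cd3g read 50.7, 29.4 and 19.5, the coreceptor genes Cd4 and Cd8b1 17.3 and 6.48, Cd2 24.6 and Cd5 101. Itgam, the CD11b integrin of myeloid cells, read 54.6. Cd8a was above the limit at 254, but its other 4 probe sets read 12.1 to 76.8, all near background. Ncam1 read 198, Il7r, the interleukin 7 receptor of lymphoid progenitors, 334, and the Fc receptor gene Fcgr3 769. Ptprc was bright at 6925. It encodes CD45, which all white blood cells carry, and the array value does not separate the B220 form used in depletion.

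The depletion antigens measured were mainly those of T cells, and not every lineage was represented among them. Erythroid and neutrophil granule genes were widely bright. Of 23 erythroid genes 10 were bright (43.5%, against 10% of all named genes), 10 middling and 3 near background, with a median of 2642 and a range of 5.56 to 25815. Of 19 neutrophil genes 11 were bright (57.9%), 8 middling and 0 near background, with a median of 5071 and a range of 291 to 32242. No other lineage list had more than 2 bright members. Which cells carried these transcripts was not tested.

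The erythroid genes spanned enzymes, membrane proteins and regulators. Car1 and Car2, the carbonic anhydrases of red cells, read 25815 and 18297. Ermap, an adhesion molecule of erythroid membranes, read 19247, and Aqp1, the water channel, 11297. Slc4a1, the band 3 anion exchanger, read 12659, but its other probe sets read 3472 and 6.12. Klf1, the factor that switches on red cell genes, read 12847 by its lone probe set. In contrast, the globin genes on the list were the dimmest members, with Hba-a1 at 38.1, Hbb-y at 13.8 and Hba-x at 5.56. These 3 are the globin genes of the list that single-gene probe sets represent, and Hbb-y and Hba-x are embryonic forms.

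The neutrophil genes covered granules of different stages. Mpo, myeloperoxidase of the primary granules that form first, read 14665. Elane, neutrophil elastase of the same granules, was middling at 800. Genes of later granules lay in both bands, and Mmp8, of the secondary granules, was middling at 1969, both genes being named after their values were seen. S100a8 and S100a9, the calcium-binding subunits of calprotectin, read 32242 and 18179. The granule protein genes Ngp, Chil3 and Lcn2 read 29306, 17234 and 10687. The dimmest were Padi4, which modifies histone arginines in neutrophils, at 477, the ficolin gene Fcnb at 400 and the chemokine receptor gene Cxcr2 at 291, all middling.

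**Figure D2:**
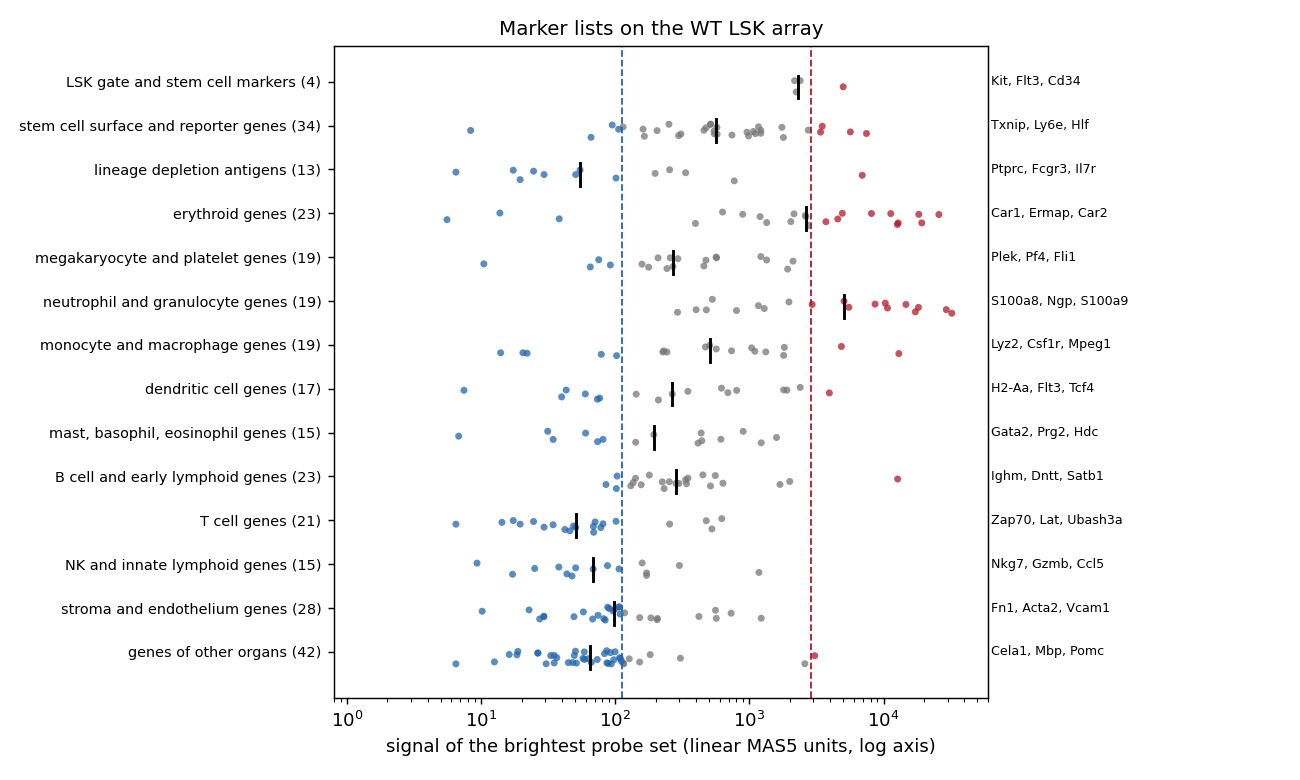
Signal of each gene's brightest probe set (linear MAS5 units on a log axis) by marker list, 1 point per gene, with black bars at list medians, dashed lines at the limits of 112 and 2878, numbers of genes in brackets and the 3 brightest genes of each list at the right. Points are red where bright, grey where middling and blue where near background. The medians of the erythroid list (2642) and the neutrophil list (5071) are the highest of the 14, and that of the T cell list (50.7) is the lowest.

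Promoters of both lists are shown because these were the lineage lists with the most bright genes. In the 18 erythroid promoters in the table, 6 held the GATA-type motif with the letters AGATAA on either strand (33.3%, against 8.13% of promoters of all named genes). All 6 holders were middling genes, and none of the 6 bright erythroid genes with a promoter in the table (Ermap, Klf1, Aqp1, Tfrc, Gata1 and Tspan33) held it. The 2 brightest genes with it before the start were Trim10, which read 2757, and Rhd, a Rh blood group gene, which read 2606. Capitals mark the motif, which is in its reverse complement in Trim10, at chr17:36869324-36869573 on the + strand, and in its own letters in Rhd, at chr4:134864286-134864535 on the + strand.
Trim10: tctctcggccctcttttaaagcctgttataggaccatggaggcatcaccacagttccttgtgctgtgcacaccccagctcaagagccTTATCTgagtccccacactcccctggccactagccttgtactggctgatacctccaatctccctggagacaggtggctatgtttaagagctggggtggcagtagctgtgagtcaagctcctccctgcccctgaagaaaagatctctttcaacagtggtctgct
Rhd: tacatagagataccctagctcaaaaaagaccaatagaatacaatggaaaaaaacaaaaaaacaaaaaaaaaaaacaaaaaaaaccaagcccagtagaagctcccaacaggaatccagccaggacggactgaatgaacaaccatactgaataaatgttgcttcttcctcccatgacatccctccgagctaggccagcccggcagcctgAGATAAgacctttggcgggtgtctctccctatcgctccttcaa
In the 18 neutrophil promoters, 6 held the letters TATAAA of a TATA box on either strand (33.3%, against 9.87% of all named genes). The 2 brightest genes with it before the start were S100a8, at chr3:90668821-90669070 on the + strand, and Ctsg, cathepsin G of primary granules, which read 5071, at chr14:56102575-56102824 on the - strand. In Ctsg the letters are the reverse complement and lie at the far end of the window from the start, not where a TATA box usually lies. S100a9 and Chil3, both brighter than Ctsg, also held the letters, but not wholly before the start.
S100a8: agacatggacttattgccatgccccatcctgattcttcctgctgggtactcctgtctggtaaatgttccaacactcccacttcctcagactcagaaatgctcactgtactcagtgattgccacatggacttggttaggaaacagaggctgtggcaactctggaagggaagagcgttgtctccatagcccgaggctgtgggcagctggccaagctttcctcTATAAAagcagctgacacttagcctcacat
Ctsg: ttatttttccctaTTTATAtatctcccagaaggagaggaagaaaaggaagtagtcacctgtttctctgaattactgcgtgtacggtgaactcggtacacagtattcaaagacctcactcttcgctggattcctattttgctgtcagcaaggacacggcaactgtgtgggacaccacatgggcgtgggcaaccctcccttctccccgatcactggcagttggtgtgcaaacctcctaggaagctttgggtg
Both lists were poor in CpG, with a median observed over expected ratio of 0.228 for erythroid and 0.156 for neutrophil promoters, against 0.674 for all named genes. The T cell list, mostly near background, had a ratio of 0.220 over 16 promoters. The shares rest on 18 promoters each, and a match is a description of letters and not of binding.

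Other myeloid lists held few bright genes, from 0% to 10.5% of a list, against 10% of all named genes. Of 19 monocyte and macrophage genes 2 were bright, Lyz2, the myeloid lysozyme, at 12984 and Csf1r, the receptor of macrophage colony-stimulating factor, at 4841 with further probe sets at 859 and 336. Mpeg1, the perforin of macrophages, read 1819 and Irf8, the factor of monocyte and dendritic fate, 1798. The dimmest were the macrophage lectin gene Siglec1 at 22.0, the complement gene C1qc at 20.5 and the scavenger receptor gene Marco at 14. Other macrophage genes of the list were middling, such as Adgre1, the F4/80 antigen, at 505 and the complement gene C1qb at 469, both named after their values were seen. Of 17 dendritic cell genes 1 was bright, the class II gene H2-Aa at 3938, and its other probe sets read 1499, 168 and 163. Of 15 mast cell, basophil and eosinophil genes none was bright and 9 were middling, led by the stem and mast cell factor gene Gata2 at 1590, the eosinophil major basic protein gene Prg2 at 1223 and the histidine decarboxylase gene Hdc at 897. Of 19 megakaryocyte and platelet genes none was bright and 15 were middling. Plek, the main kinase C substrate of platelets, read 2112, and the chemokine gene Pf4 1925. Itgb3 and Gp6, of platelet adhesion, were near background at 65.1 and 10.5.

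Lymphoid genes divided by lineage. Of 23 B cell and early lymphoid genes 19 were middling and 1 was bright (4.35%, against 10% of all named genes). The bright one was Ighm, the immunoglobulin mu chain, at 12718, whose 11 probe sets reached down to 3.99. Dntt, the DNA polymerase that early lymphoid progenitors use to diversify antigen receptors, read 1996, and the chromatin organiser gene Satb1 1688. Rag2, of the recombinase, was near background at 85.1. T cell genes were near background in 17 of 21 cases (81%, against 40.5% of all named genes), and the 4 others were the kinase gene Zap70 at 622, the adaptor gene Lat at 524, Ubash3a at 476 and Cd8a. NK and innate lymphoid genes were near background in 10 of 15 cases (66.7%, against 40.5%). Nkg7, a granule membrane gene, read 1176 and the activating receptor gene Ncr1 9.31.

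Markers from outside blood were sparse. Of 28 stroma and endothelium genes none was bright and 18 were near background (64.3%, against 40.5% of all named genes). The brightest was fibronectin, Fn1, at 1223, then the smooth muscle actin gene Acta2 at 730 and the adhesion gene Vcam1 at 566. Of 42 genes of other organs 34 were near background (81%, against 40.5%). Cela1, a pancreatic elastase, was the bright exception at 3063, and Mbp, myelin basic protein, followed at 2586. The other 40 genes of that list read at most 306, the value of the pituitary hormone gene Pomc.

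The brightest genes on the array were those of protein synthesis. Of the 100 brightest genes 26 encoded cytosolic ribosomal proteins. Of 49 such genes measured 38 were bright (77.6%, against 10% of all named genes), with a median of 24471. The exceptions reached down to 2.20, so some named probe sets of this abundant family give little signal. Translation factors were bright in 33 of 57 cases (57.9%, against 10%), led by the elongation factor gene Eef1a1 at 34864. Spliceosome and RNA-binding genes were bright in 37 of 47 cases (78.7%, against 10%), including Hnrnpab at 28043 and the splicing factor gene Srsf1 at 26207. Proteasome subunits were bright in 23 of 39 cases (59%, against 10%). Respiratory chain and ATP synthase genes were bright in 52 of 90 (57.8%, against 10%), with Uqcrb of complex III at 27828. Mitochondrial ribosomal proteins differed in being mostly middling, 60 of 76 (against 49.4% of all named genes), with 16 bright (21.1%, against 10%). None was near background (against 40.5%), and their median was 1521, beside 200.2 for all named genes.

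Of 43 ribosomal protein promoters in the table, 21 held CCGGAAG, an ETS-type motif (48.8%, against 13.8% of all named genes). The 2 brightest such genes are shown, since the family leads the array. Rps18 read 39090 and lies at chr17:33955666-33955915 on the - strand, where the motif occurs 2 times, and Rpsa, the laminin-binding small subunit protein, read 37216 and lies at chr9:120127516-120127765 on the + strand with the motif in its reverse complement.
Rps18: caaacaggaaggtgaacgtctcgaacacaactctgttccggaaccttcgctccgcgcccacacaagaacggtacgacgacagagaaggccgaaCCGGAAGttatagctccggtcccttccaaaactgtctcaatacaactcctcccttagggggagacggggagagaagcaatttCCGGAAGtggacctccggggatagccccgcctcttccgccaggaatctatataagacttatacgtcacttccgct
Rpsa: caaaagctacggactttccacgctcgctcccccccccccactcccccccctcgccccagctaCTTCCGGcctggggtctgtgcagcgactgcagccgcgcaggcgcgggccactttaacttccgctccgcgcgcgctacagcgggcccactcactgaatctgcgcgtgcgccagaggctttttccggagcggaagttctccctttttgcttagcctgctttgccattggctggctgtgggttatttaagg
In these windows capitals again mark the motif. Neither printed sequence runs past the start site.

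Outside the ribosome, the 30 brightest genes held several other groups. Chromatin proteins were the histone variant gene H2az1, the brightest at 35903, and the histone chaperones Rbbp4 at 28488 and Rbbp7 at 27532. Messenger RNA handling was represented by Serbp1 at 34802, the cap helicase partner Eif4h at 31627 and the poly(A)-binding genes Pabpc1 at 31005 and Pabpn1 at 27455. Chaperones were Hspa8 at 34697, the nucleolar chaperone Npm1 at 27011 and the chaperonin subunit Cct4 at 26801. Mitochondrial genes were the phosphate carrier Slc25a3 at 31778, the import receptor Tomm20 at 28111 and C1qbp at 29357. The GTPase Ran, which drives nuclear transport, read 29526, and Clns1a, of snRNP assembly, 26275. Tpt1 read 31412, Hint1 31831, the aldehyde reductase Akr1a1 30311, the ornithine decarboxylase antizyme Oaz1 29968 and the tubulin gene Tuba4a 29588. The remaining members of the 30 were S100a8 and Ngp of neutrophils, the lysozyme Lyz1, the enzymes Tkt and Mdh2 and the surface protein gene Cd24a.

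Of 372 transcription factors 43 were bright (11.6%) and 135 near background (36.3%), shares close to the 10% and 40.5% of all named genes. Families differed widely from each other. Among GATA, TAL1 and partner factors, which run stem cell and erythroid programmes, 5 of 19 were bright (26.3%, against 10%). The median of the list was 1821. Lmo2, the bridging subunit of the complex, read 10058 and Tal1, its bHLH subunit, 3539. Gata1, which drives red cell and megakaryocyte genes, read 4923, its cofactor Zfpm1 3371 and the repressor Gfi1b 2754. Gata3, of T cells, and Zfpm2 and Tal2 were near background at 42.0, 42.6 and 41.1. In the RUNX and C/EBP list Cbfb, the shared partner of RUNX proteins, was the bright member at 4185, Cebpg read 2093 and Runx1 2002, with 5 further Runx1 probe sets from 77.1 to 1080. Cebpa, of granulocyte commitment, was near background at 96.5, while 11 of 19 neutrophil genes were bright on the same array. Its value lies close to the limit. With the lower limit at the 90th percentile of sensory receptor genes, 91.5, Cebpa would be middling. Cebpd and Cebpb were middling at 649 and 155.

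ETS factors, the family of Mef, were bright in 4 of 23 cases (17.4%, against 10% of all named genes) with a median of 368. These were Elk4 at 4831, the repressor gene Etv6, needed by adult stem cells, at 4113, Gabpa at 3389 and Elf1 at 2991. Erg and Fli1, partners in the stem cell enhancer network, were middling at 1368 and 1342. Near background were 7 of the 23 (30.4%, against 40.5%), the dimmest being Elk1 at 38.6, Spdef at 32.5 and Elf5 at 32.4. Elf4, the gene of Mef, was among the 7 at 74.3 and is named because the series deletes it. HOX, MEIS and PBX factors were near background in 30 of 42 cases (71.4%, against 40.5%). The bright exception was Hoxa9, which promotes stem cell expansion, at 6973 with its other probe set at 216. Hhex read 2200, Pknox1 1082, Hoxa5 819 and Pbx3 792. The dimmest 3 were Hoxd13 at 9.45, Hoxb5 and Hoxd1 at 3.02.

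Lymphoid and Ikaros factors included 6 bright genes of 38 (15.8%, against 10% of all named genes). Near background were 12 (31.6%, against 40.5%). Ikzf1, the zinc finger factor that primes lymphoid genes in multipotent cells, read 9128, with its other probe set at 22.4. Tcf12, an E protein, read 7918, Bcl11a, of lymphoid and globin regulation, 7013, and Sox4 4804. Aff3 and the haem-sensing repressor gene Bach1 were just over the bright limit at 2976 and 2970. The dimmest were Id4 at 53, Foxp3, of regulatory T cells, at 48.8 and Tbx21, of type 1 helper and innate cells, at 25.1. Of the rest 20 were middling, among them Id2, of innate lymphoid cells, at 777, which was named after its value was seen.

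Of 32 MYC, MYB and cell cycle factors 8 were bright (25%, against 10%), 22 middling and 2 near background, with a median of 971. Myb, which sustains progenitor proliferation, read 13847, and its further probe sets 7657 and 689. E2f8, a repressor of late S phase, read 9108, the E2F partner gene Tfdp1 5033, the pocket protein genes Rbl1 and Rb1 3822 and 3657, and Myc 3532. Mycl and Mybl1 were near background at 37.0 and 22.3. Among AP-1, EGR, NR4A and KLF factors 35 of 49 were middling and 5 bright (10.2%, near the 10% of all named genes). The 5 bright ones were Atf4, of the amino acid stress response, at 8005, Sp1 at 6814, Klf3 at 6324, Klf9 at 6247 and Creb1 at 3700. Jund read 2668, and Maff, Klf15 and Batf3 were lowest at 17.1, 16.9 and 7.44.

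Signal-driven factors were mostly middling. In the STAT, IRF, NF-kB and SMAD list 24 of 32 lay between the limits (against 49.4% of all named genes). The bright member (3.12%, against 10%), Nfkbia at 13064, encodes an inhibitor of NF-kB and not a factor. Rela, the main activating NF-kB subunit, read 2794, Nfatc3 2636, Irf3 2261, Smad4, the shared SMAD, 2253 and Irf1 2009. Nfkb2 and Relb, of the alternative NF-kB pathway, were near background at 30.9 and 7.61, as was Smad9 at 12.7. Stem cell and general factors had 11 bright members of 57 (19.3%, against 10% of all named genes). The brightest was the RNA and DNA binding gene Ybx1 at 18852. The mRNA decay gene Zfp36l2, needed by stem cells, read 12133 and Yy1 9260. Xbp1, of the unfolded protein response, read 8264, Gtf2i 6430 and Hmgb3, a high mobility group gene of progenitors, 6358. The dimmest of the list were Snai2, Tead4 and Tead2 at 18.0, 17.6 and 13.

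Nuclear receptors were near background in 16 of 33 cases (48.5%, against 40.5% of all named genes). The bright one (3.03%, against 10%) was Nr2c2 at 4091. The glucocorticoid receptor Nr3c1 read 2518, Rxrb 2347, Nr1d2, of the clock, 1772 and the thyroid hormone receptor gene Thra 1341. The mineralocorticoid receptor Nr3c2 and the oestrogen receptor gene Esr2 were lowest at 9.82 and 15.4. Of 38 master factors of other organs none was bright and 34 were near background (89.5%, against 40.5%). The 4 above the limit were Gata6 at 210, Sox10 at 158, Nkx2-5 at 147 and Lhx3 at 139. The stem cell factor of embryos, Sox2, read 2.82 and the muscle factor Myf5 1.32.

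**Figure D3:**
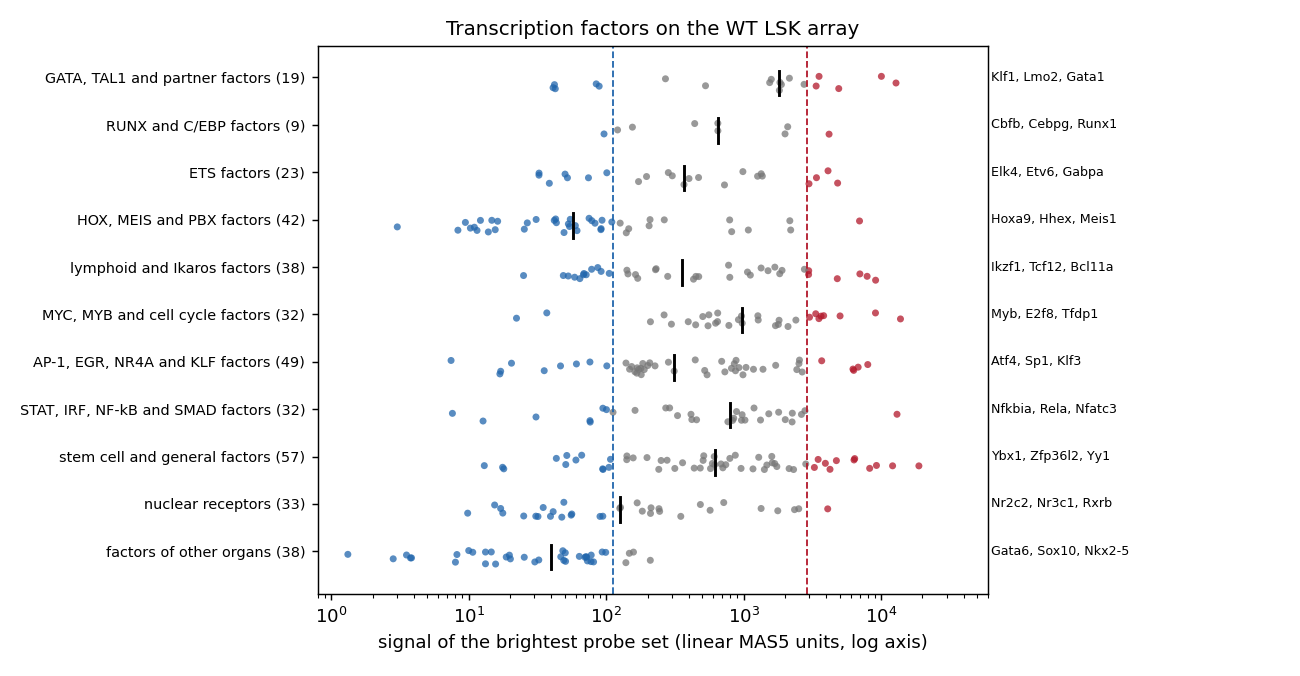
Signal of each transcription factor gene's brightest probe set (linear MAS5 units on a log axis) by family, 1 point per gene, with black bars at medians, dashed lines at the limits of 112 and 2878, numbers of genes in brackets and the 3 brightest genes at the right. The median is highest for GATA, TAL1 and partner factors (1821) and lowest for factors of other organs (39.5), where no point reaches the bright limit.

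Of 273 surface receptors 17 were bright (6.23%, against 10% of all named genes) and 87 near background (31.9%, against 40.5%). Most, 169, were middling. Among 62 cytokine and growth factor receptors 3 were bright (4.84%, against 10%). They were Tfrc, the transferrin receptor of dividing and erythroid cells, at 8115 with further probe sets at 443 and 122, then Kit, and Csf1r. The interferon gamma receptor gene Ifngr1 read 2526 and the interleukin 17 receptor gene Il17ra 1428. Il9r was the dimmest at 7.08, next to the ephrin receptor genes Ephb4 and Epha2 at 9.56 and 10.9.

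Receptors of TGF-beta, TNF, Notch and Wnt ligands held 2 bright genes of 48 (4.17%, against 10% of all named genes). Tgfbr3, the co-receptor betaglycan, read 5317 by a probe set whose partner read 87.2, and Notch2 read 3535. The signalling receptor gene Tgfbr2 read 2642. The Hedgehog receptor genes Ptch1 and Smo read 2619 and 1629, and Tnfrsf1a, a TNF receptor gene, 1585. The death receptor gene Fas and the Wnt co-receptor gene Lrp5 were near background at 23.2 and 19.5, with Tnfrsf14 at 26.9. Among 49 G protein-coupled receptors F2r, the thrombin receptor, was bright at 15814 and its other probe set also, at 3374. Adgrl4, an adhesion receptor of endothelial and stem cells, read 3315, the prostaglandin receptor gene Ptger4 2851 and Calcrl 2816, the last 2 just under the bright limit. Adgrg3 read 2453, the formyl peptide receptor gene Fpr2 2014, and the chemokine receptor genes Ccr3 and Ackr3 were near background at 6.79 and 2.49.

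Integrins, selectins and other adhesion molecules had 9 bright members of 68 (13.2%, against 10% of all named genes). That was the most among the receptor lists, in the longest of them. Cd24a, a heat stable antigen of immature blood cells, read 29536, and its further probe sets 13808 and 11921, so all 3 were bright. The sialomucin gene Cd164 read 11391 with its other probe set at 51.0. Cd44, the hyaluronan receptor by which progenitors home, read 7359 and 7250 on its brightest probe sets. Cd47, which protects cells from macrophages, read 7347 and Spn, the sialophorin CD43, 5062. The endothelial selectin gene Sele and the integrin genes Itga7 and Itgb8 were near background at 43.1, 10 and 1. Of 46 pattern and immune receptors 1 was bright (2.17%, against 10%), the adaptor gene Tyrobp at 2885. The lectin gene Clec4d followed at 1824, with Trem3 at 1307, Clec4a2 at 1065, Fcgr2b at 942 and Clec7a at 923. Tlr3, Tlr8 and the NK receptor gene Klrk1 were lowest at 26, 18.8 and 17.1.

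Enzymes had the highest share of bright genes among the classes listed. Of 395 enzymes 129 were bright (32.7%, against 10%) and 37 near background (9.37%, against 40.5%), with a median of 1599 beside 200.2 for all named genes. The enzyme lists also hold some transporter genes, such as Abcg2, which are counted here. Nucleotide and DNA synthesis enzymes were bright in 34 of 54 cases (63%), and tricarboxylic acid cycle enzymes in 16 of 27 (59.3%). The replicative helicase gene Mcm7 read 26129, and its further 3 probe sets were all bright, from 6937 to 9241. Mcm5 read 18621, but its other probe sets read 1974 and 72.5. Nme1 and Nme2, which balance nucleotide triphosphates, read 20531 and 14258, the folate enzyme gene Mthfd1 19067 and the flap nuclease gene Fen1 15708. Tyms, thymidylate synthase, was an exception at 183, as was the end-joining ligase gene Lig4 at 134.

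Central carbon enzymes were bright in several branches. In the mitochondrial cycle, the malate dehydrogenase genes Mdh2 and Mdh1 read 26893 and 15755, citrate synthase, Cs, 11341, Idh3g 10375, the citrate lyase gene Acly 9576 and Pdhb, of the pyruvate dehydrogenase complex, 7936. None of the 27 was near background, and the lowest were Sdhc, Pcx, which encodes pyruvate carboxylase, and Me1 at 1158, 263 and 163. In glycolysis and the pentose phosphate pathway 10 of 32 were bright (31.2%, against 10% of all named genes). The pentose phosphate enzymes Tkt, Pgd, Taldo1 and Rpia read 30459, 12336, 11184 and 8663, and so made up 4 of the 6 brightest of that list. The glycolytic genes Pgk1 and Ldha read 23919 and 11125, and isoforms of testis, neurons and muscle, Ldhc, Eno2 and Pgam2, were near background at 46.0, 30.4 and 13.8.

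Haem and redox enzymes followed. Of 21 genes on the haem and iron enzyme list 8 were bright (38.1%, against 10% of all named genes). The 8 include the transporter genes Abcg2 at 3386 and Slc25a37 at 3264, which do not encode enzymes of haem synthesis. Among the bright ones were ferritin, Fth1, at 17624, and 3 enzymes of haem synthesis, Urod at 11895, Fech at 9210 and Alad at 7561. Others of haem synthesis were middling, with Alas2 at 1787, Alas1 at 1750, Uros at 1712, Cpox at 1361 and Ppox at 862. These middling genes were named after their values were seen. Blvrb, the biliverdin reductase of red cells, read 4979 and Aco1, the iron-sensing aconitase, 4861. Hmox1, which breaks haem down, was near background at 56.7, as was ceruloplasmin, Cp, at 95.1. These haem synthesis values stood beside the bright erythroid genes above, and how much of the signal came from erythroid cells was not tested. Antioxidant and detoxifying enzymes were bright in 18 of 51 cases (35.3%, against 10%). Peroxiredoxin 2, Prdx2, read 22788, thioredoxin, Txn1, 21650, Gsto1 14370, the glutathione peroxidase gene Gpx1 12487 and Aldh9a1 11862. Sod1, the cytosolic superoxide dismutase, read 22284, though its dimmest of 5 probe sets read 50.3. The vitamin A enzyme Aldh1a2 was lowest at 8.52.

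Chromatin enzymes and kinases were mostly middling, 56 of 71 and 46 of 59 (against 49.4% of all named genes). Bright were 12 and 11 of them (16.9% and 18.6%, against 10%). The demethylase gene Kdm2b read 11272, and the maintenance DNA methyltransferase gene Dnmt1 7597, with further probe sets at 4027 and 2500. Of the Polycomb genes, Suz12 read 6240, Ezh2 6048 and Bmi1, needed for stem cell renewal, 4114. The deacetylase gene Hdac2 read 4249. Tet3, Hdac8 and Dnmt3l were near background at 90.4, 59.0 and 16.2. Among kinases, Cdk6, which controls exit of stem cells from quiescence, read 14527 and 10422 on its brightest probe sets and 31.9 on the remaining one. Cdk4 read 5624, Cdk9, of transcript elongation, 4684, Csnk1a1 11098, the leukocyte lipid kinase gene Pik3cd 6710 and Mapk14, p38, 5626. Yes1 and Prkaa2 were near background at 58.8 and 95.7.

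Of 42 granule and lysosomal enzymes 13 were bright (31%, against 10% of all named genes). Among them were Lyz1 at 27167, Ctse, cathepsin E, at 21398, Mpo, Lyz2, the sheddase gene Adam10 at 9998 and Prtn3, proteinase 3 of primary granules, at 5508. Lyz1 is close to Lyz2 in sequence, its dimmest probe set read 58.8, and how far each probe set reads the other gene was not tested. The dimmest of the list were the granzyme gene Gzmc at 9.67, the osteoclast protease gene Ctsk at 41.8 and the mast cell chymase gene Cma1 at 60.0, while another granzyme gene, Gzmb, and the mast cell protease gene Cpa3 were middling at 300.3 and 613. Sterol and fatty acid enzymes were bright in 8 of 39 cases (20.5%, against 10%). Among them were the desaturase gene Scd2 at 10140, Hadhb of beta oxidation at 9783 and the elongase genes Elovl5 and Elovl1 at 6646 and 5550. The leukotriene hydrolase gene Lta4h read 5600 and the sterol synthesis gene Hmgcs1 3489. The prostaglandin enzyme genes Ptgs2 and Hpgds were near background at 79.0 and 40.5, with Acacb at 58.0.

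**Figure D4:**
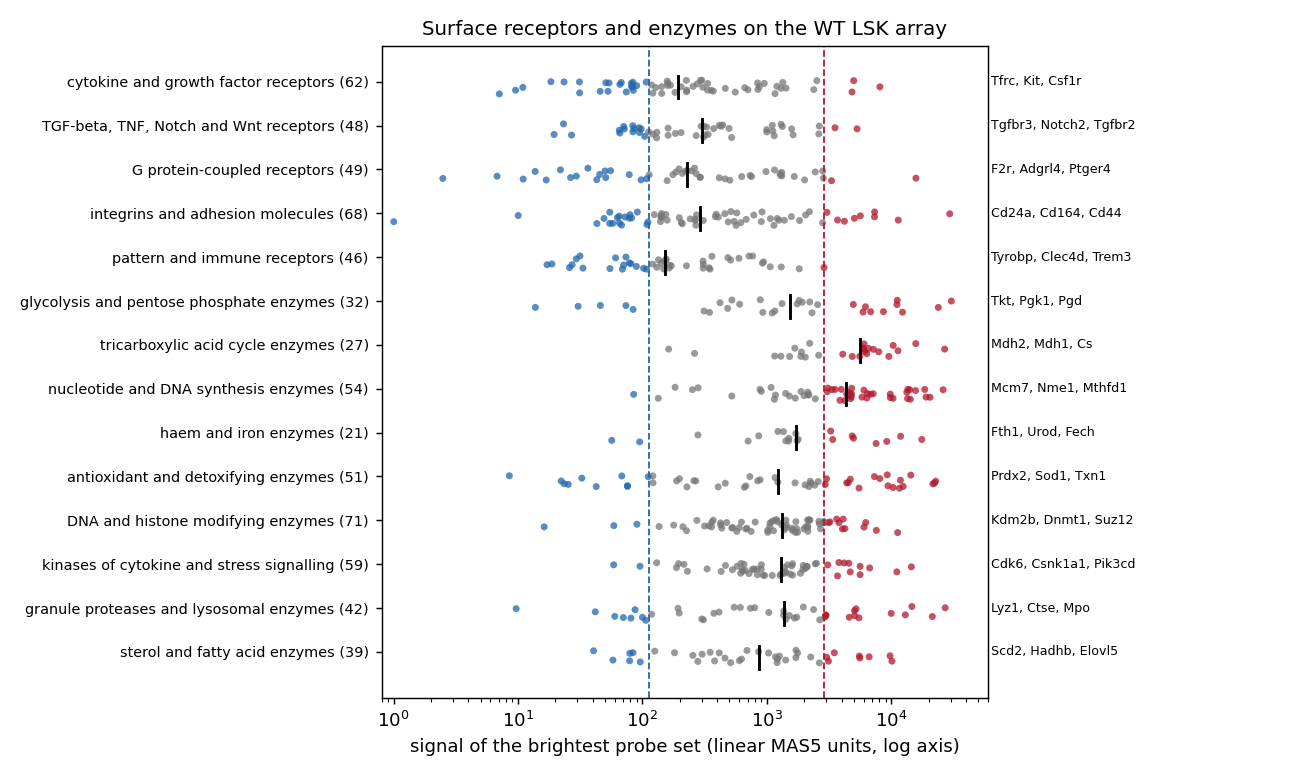
Signal of each surface receptor or enzyme gene's brightest probe set (linear MAS5 units on a log axis) by list, 1 point per gene, with black bars at medians, dashed lines at the limits of 112 and 2878, numbers of genes in brackets and the 3 brightest genes at the right. The medians of the 5 receptor lists lie between 152 and 304, and those of the 9 enzyme lists between 861 and 5592.

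Of 15 MCM and licensing genes 9 were bright (60%, against 10% of all named genes) and none near background, with a median of 6374. Of 70 mitosis genes 11 were bright (15.7%) and 46 middling, with a median of 916 and the highest at 17134. Of 7 cyclin-dependent kinase inhibitor genes, which hold cells out of the cycle, none was bright, 5 were middling and 2 near background. Their median was 275 and the highest read 1950. Among all named genes 40.5% were near background, and 7 genes are too few to set against either share. A single array does not show what share of the cells was in cycle.

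Genes at the limits and genes with discordant probe sets mark how firmly a band can be read. Just below the bright limit were Rbpj, the factor that Notch activates, at 2833, Ptger4 at 2851 and the deacetylase gene Sirt1 at 2877, and just above it Kmt2e at 2878, Tyrobp at 2885 and Mmp9 at 2933. Around the lower limit, Jam3, Apoa2 and Gpx3 read 111 and were near background, while Irf2 and Acvr2b at 112 and S1pr1, the receptor by which blood cells leave tissues, at 114 were middling. On the lists, 67 genes had probe sets in both the bright and the near-background band. Those with the brightest signals were Lyz1 (27167 and 58.8), Sod1 (22284 and 50.3), Ybx1 (18852 and 27.5), Mcm5 (18621 and 72.5), Mdh1 (15755 and 16.2) and Cdk6 (14527 and 31.9), each given as its brightest and its dimmest probe set. The band of such a gene rests on its brightest probe set.

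Promoter sequence was then set against band over all named genes. The windows, from 250 bases before to 50 after the start, were in the RefSeq table for 1497 bright, 7335 middling and 5620 near-background genes. The median CpG observed over expected ratio was 0.848 in bright, 0.757 in middling and 0.388 in near-background genes, and the median G+C content 62%, 60.7% and 54.3%. The GC box GGGCGG was held by 68.7%, 63.2% and 38% of these promoters, against 35.9% of all 27025 RefSeq promoters. The ETS-type motif CCGGAAG was held by 21.1%, 18.8% and 5.25%, against 9.12% of all, and the E box CACGTG by 11%, 10.4% and 6.73%, against 7.24%. TATAAA ran the other way, at 7.28%, 6.97% and 14.3%, against 14.2% of all, as did AGATAA, at 6.08%, 6.28% and 11.1%, against 11.4%. The AP-1-type motif TGACTCA was held by 3.54%, 3.56% and 5.64%, against 5.17%, and the YY1-type motif AGATGGC by 8.28%, 7.5% and 4.82%, against 6.45%. CCAAT varied least, at 39.2%, 38.7% and 37.2%, against 37.9%. Both strands were searched, GGGCGG and CCGGAAG match more often in G+C rich sequence by their letters, and no test was made.

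**Figure D5:**
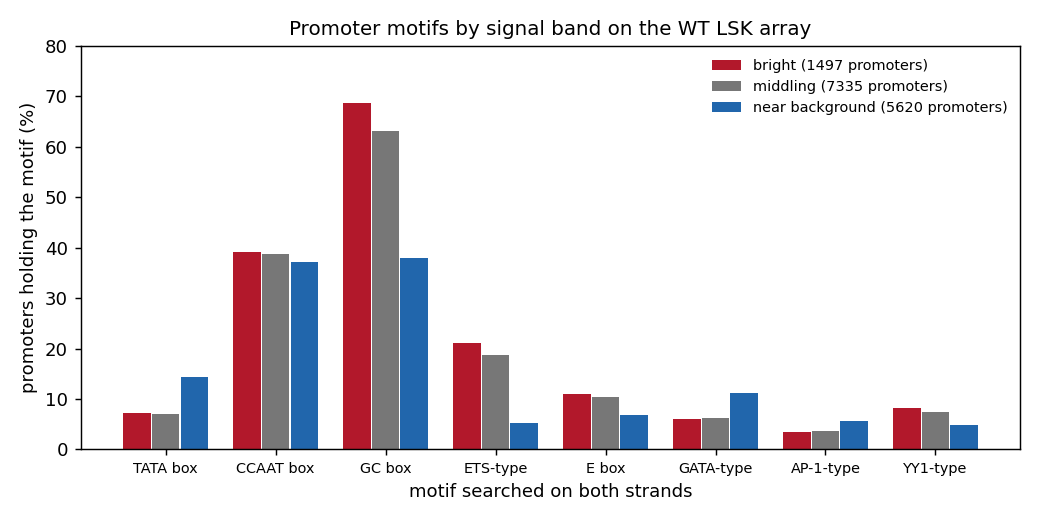
Share of promoters (%) that hold each of 8 motifs on either strand, for genes in the bright (red), middling (grey) and near-background (blue) bands. The GC box and the ETS-type motif are held by more promoters of bright genes (68.7% and 21.1%) than of near-background genes (38% and 5.25%), and the TATA box by fewer (7.28% and 14.3%).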

How the data were processed

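Per the labels' protocols, RNeasy columns gave the RNA, and the Affymetrix one-cycle kit gave biotin-labelled target. The authors deposited signal intensities on a linear scale, made with GCOS and MAS5 per the submitters' processing notes, with no version given. Their 2% trimmed mean was 500.003, so global scaling had already been applied. Of the 45101 probe sets, 34958 carried 1 gene symbol, 932 several and 9211 none, and 34754 were updated through the Entrez ID in the RefSeq gene table (GRCm38.p6). Control probe sets were left out of genes.

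Here each gene took its brightest single-gene probe set, with limits at the top 10% and at the 95th percentile of sensory receptor genes. No pseudocount, detection call or test was used, and every value column had a label. Precision is limited by the number of arrays, which is 1. The 39 lists held 1331 genes, of which 1213 were named on the array, and 113 genes were on more than 1 list. Members and lists were chosen with earlier results of these data known. The text names the 30 brightest genes outside ribosomal families, all gate, stem cell and depletion markers, up to 6 brightest and 3 dimmest genes per list, and genes at the limits or with discordant probe sets. Promoters shown were chosen after their values were seen. Promoter windows, 250 bases before to 50 after the first listed start, came from RefSeq (GRCm38.p6). Alternatives were other limits, a geometric mean over probe sets and probe sets unique to a transcript. Protein lengths were not used here. Band calls were run on simulated signals planted well beyond the limits, which checks the code and not how firm the bands are. Python 3.11.15, numpy 2.4.6 and pandas 2.3.3 were used.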

Additional observations from a re-analysis of the deposited data

How the results depend on the processing

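Of 56 recomputed values (counts of genes by band, and CpG ratios and TATAAA shares of promoters), 49 stayed within 1.5 times the value reported. Part of the 49 could not move by construction. A change of the lower limit alone leaves every bright count as it was, and a change of the bright limit alone every near-background count. With other choices of probe sets, the bright share of all named genes stays at 10% because the limit is set there. The 49 is therefore not a measure of how firm the bands are. With the geometric mean over the probe sets of a gene, 27 transcription factors were bright and 59 enzymes were near background, and 296 of 1213 listed genes changed band (24.4%). With the bright limit at the top 20% of named genes (a signal of 1364), bright genes numbered 3639 among all named genes, 90 among transcription factors, 36 among surface receptors, 220 among enzymes and 40 among lineage genes, as the limit's own construction gives. Listed genes that changed band numbered 52 with the lower limit at the 90th percentile of sensory receptor genes, 29 with it at the median of all probe sets, and 119 of 1049 with probe sets unique to a transcript. No paired analysis was possible because only 1 array was used. Leaving out a replicate could not be done for the same reason, and protein length was not run. Signal over background limits what can be said of dim genes: a gene near background had only a bound, and its absence from the cells is not shown.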

Other observations

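Sex-linked genes, chosen after their values were seen, read above the near-background limit from both sides. The Y-linked genes Eif2s3y, Kdm5d and Uty read 2403, 478 and 464, while Sry, which acts in the gonad, was near background at 21.4. Xist, the RNA of the inactive X chromosome, read 245 by the brightest of 3 probe sets, a middling value. The highest sensory receptor gene read 191, so the Xist value lies near the floor. Whether RNA of both sexes was on the array was not tested. The labels give neither the sex nor the number of the mice.

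Probe sets outside the named genes also carried signal. Of 9160 probe sets without a symbol in the table used, 142 were at or over the bright limit (1.55%) and 6783 near background (74.1%), and the highest read 36064. Of 932 probe sets with several symbols, 213 were bright (22.9%) and 382 near background (41%), and the highest signal of the array, 44622, was among them. No gene is named from these.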
